A study of Mus musculus with 8 samples.

Results

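The natriuretic peptide system of the heart was read from 8 genes of a deposited table of 22518 genes, chosen by symbol: the peptide genes Nppa, Nppb and Nppc, the receptor genes Npr1, Npr2 and Npr3, the activating protease gene Corin and the neprilysin gene Mme. All 8 were found in the table. Whole hearts of C57BL/6 mice at postnatal day 12 were compared between wild type littermate controls and mice lacking PHD2 and PHD3 in the endothelium, with 4 RNA sequencing libraries in each group. PHD2 and PHD3, encoded by Egln1 and Egln3, use oxygen to tag hypoxia-inducible factors (HIF) for breakdown. The labels name neither the Cre line nor the time of deletion, and they list no allele for the controls. Whether each library stands for a separate animal is not stated either, so that a heart with a number below means a library, and a p-value here reflects only how far these samples spread. Values are FPKM, sequenced fragments scaled to transcript length and library size, so levels of different genes can be set side by side. The wild type littermates are called control hearts below, numbered as in the labels.

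Atrial natriuretic peptide (ANP, from Nppa) and B-type natriuretic peptide (BNP, from Nppb) are hormones that heart muscle releases when it is stretched, and they increase salt and water excretion and widen vessels. Both bind NPR-A, the product of Npr1, a receptor that makes cyclic GMP inside the target cell. C-type natriuretic peptide (from Nppc) acts mainly through the related receptor NPR-B, the product of Npr2. NPR-C, the product of Npr3, takes up all of these peptides and clears them, while neprilysin, the product of Mme, cuts them at the cell surface. Corin is a transmembrane protease of cardiomyocytes that cuts the ANP precursor into its active form. In the mouse, Nppa is expressed in both atria and ventricles before birth and mainly in the atria after it, and a return in the ventricle is a widely used sign of load.

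The hormones share a ring closed by a bond between 2 cysteines, and the ring is the part that the receptors recognise. The 17 codons of this ring are shown for Nppb and Nppc, so that a peptide of heart muscle can be compared with C-type natriuretic peptide. They come from the GENCODE M21 transcripts, are written 5′ to 3′ in the coding direction and have the cysteine codons in capitals.
Nppb: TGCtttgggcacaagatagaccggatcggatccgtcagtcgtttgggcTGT
Nppc: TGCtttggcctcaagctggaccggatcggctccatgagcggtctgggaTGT
The sequences had the same base at 40 of 51 positions (78.4%). The ring of Nppa, not shown, had the same base at 66.7% of positions with Nppb and at 62.7% with Nppc.

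Nppa and Nppb are neighbours on chromosome 4 in mm10, on the same strand, with the start of Nppb at -14934 bp from that of Nppa. The 250 bases before the RefSeq start of Nppa (GRCm38.p6, the same build, chr4:148000472-148000721, plus strand) are shown because genes of factors known from this promoter are read below.
Nppa: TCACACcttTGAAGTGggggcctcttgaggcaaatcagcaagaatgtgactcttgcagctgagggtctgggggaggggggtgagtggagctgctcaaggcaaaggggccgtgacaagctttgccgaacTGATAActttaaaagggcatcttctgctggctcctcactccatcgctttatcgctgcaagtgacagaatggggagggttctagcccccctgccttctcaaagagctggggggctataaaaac
The capitals mark matches to a T-box motif (TCACAC, bases -250 to -245 from the start), an NKX2-5 motif (TNAAGTG, -241 to -235) and a GATA motif (-122 to -117). For Nppb, 30 bases are shown (chr4:147985793-147985822, plus strand), since they hold all of the motif matches in its window. They lie before the RefSeq start but inside the gene as GENCODE M21 draws it, which covers 112 bases of this window.
Nppb: caGGAATGcagcTGATAAatcagAGATAAc
Here the capitals mark a match to the M-CAT motif of TEAD factors (CATTCC, on the other strand, -105 to -100 from the RefSeq start) and a pair of GATA matches (-95 to -90 and -84 to -79). The GATA motif was searched as the letters GATA with A or T before and A or G after them, and all motifs on both strands. Of 32851 RefSeq windows of this length, 26.5% held the GATA motif, 10.1% the NKX2-5 motif, 12.3% the T-box motif and 12.6% the M-CAT motif, so these matches are common and are descriptions only. The HIF core motif (ACGTG or GCGTG), held by 38.6% of windows, had no match in the windows of Nppa, Nppb, Npr2 or Npr3 and 1 match each before Nppc, Npr1 and Corin, and in 1 of the 3 windows of Mme. The AP-1 motif (TGANTCA) and the CArG box, held by 6.75% and 1.47% of windows, had no match to the pattern searched before Nppa or Nppb. Sites that depart from a pattern were not counted, so this does not show that a factor has no site there.

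Some facts about the 8 libraries bear on the values below. Depth is unknown, because the table was quantile normalised and the 39 highest ranks hold the same value in every library. Of all genes, 11390 had a mean of at least 1 FPKM and were tested with limma on log2(FPKM + 1), and 1385 of them (12.2%) passed at adjusted p under 0.05, 6.15% higher and 6.01% lower in the knockout hearts. The count was 574 without control heart 2, 742 without control heart 4, 759 without knockout heart 2, 838 without control heart 3 and 896 without knockout heart 3. Egln1 was at 45.2 to 57.9 FPKM in control and 52.6 to 63.5 FPKM in knockout hearts (adjusted p = 0.442), and Egln3 at 18.0 to 38.7 and 32.6 to 52.8 FPKM (adjusted p = 0.132), so neither mean was lower. Endothelial cells are a minority in whole heart tissue, and such values are no check of the genotype. Lung markers summed to 1244 FPKM in control heart 4 and to at most 1.14 FPKM in the knockout hearts. Nearly all of this sum was Scgb1a1 (1030 FPKM) and Scgb3a2 (206 FPKM), and Scgb1a1 was at most 0.323 FPKM in every other library. Sftpa1 and Sftpd were at 3.83 and 3.06 FPKM in control heart 4, whereas Sftpc was at 0 and Ager at 0.583 FPKM. The library number of knockout heart 4 lies apart from the other 7 in the labels. The right atrial gene Bmp10 was at 0.121 FPKM or less in control hearts 1 and 4, at 1.12 and 0 FPKM in knockout hearts 1 and 4, and at 49.6 to 141 FPKM in the other 4 libraries. Of 9 cardiomyocyte markers 1 fell (Tnni3, adjusted p = 0.0169, and 0.0519 without knockout heart 2). Their summed level was 32076 to 34402 FPKM in control and 28983 to 31512 FPKM in knockout hearts, so every knockout heart was below every control heart.

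Of the 8 members, 6 were at a mean of at least 1 FPKM and entered the test. The receptor genes Npr1 and Npr2 fell in the knockout hearts, by 1.81-fold and 1.30-fold in mean FPKM. The peptide genes Nppa and Nppb had means 2.91-fold and 3.60-fold higher in the knockout hearts, with a wide spread among the knockout hearts, and neither passed the test. Npr3 and Corin did not pass, and Nppc and Mme lay under the expression filter. The 2 members called, both lower, stand beside 12.2% of all genes tested called in either direction. The groups did not overlap in 3 of the 6 members tested (Nppa, Npr1 and Npr2), against 20.7% of all genes tested, and they also did not overlap in Mme.

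**Figure D1:**
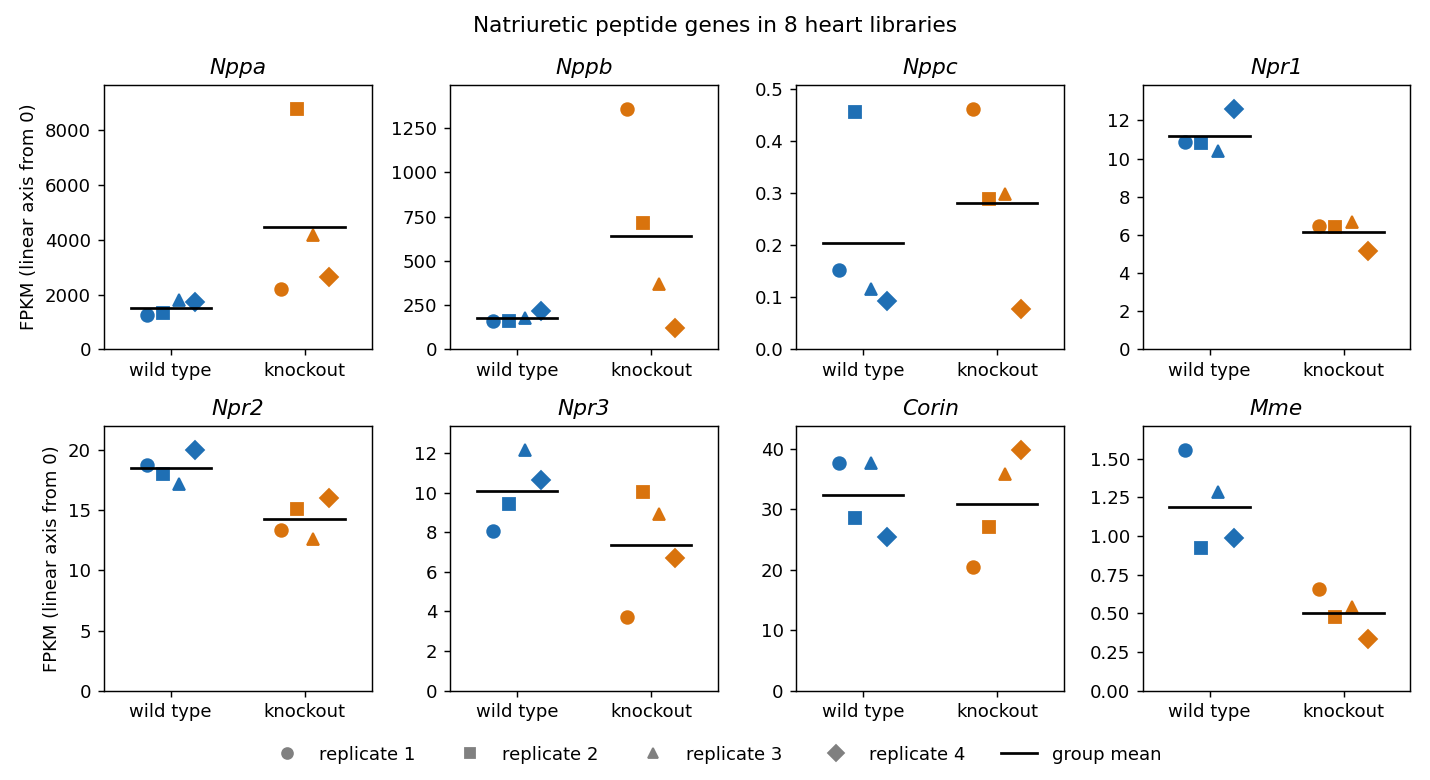
FPKM (linear axes from 0, a different scale for each gene) of the 8 genes in each of the 8 heart libraries, with wild type controls in blue and knockout hearts in orange, with 1 symbol per replicate number and a black line at the mean of the 4 libraries. Npr1 lies at 10.4 to 12.6 FPKM in control and 5.16 to 6.66 FPKM in knockout hearts, while the knockout values of Nppa run from 2195 to 8759 FPKM.

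In the control hearts the order of mean levels was Nppa, Nppb, Corin, Npr2, Npr1, Npr3, Mme and Nppc. Neighbours in this order did not overlap in their range over the 4 hearts, except Npr1 and Npr3. In the knockout hearts the order was the same but for Npr3 and Npr1, which overlapped again and stood the other way round, and the ranges of Mme and Nppc also overlapped. Nppa was among the most abundant RNAs of the table, ranking 34 to 51 in the control and 10 to 27 in the knockout hearts. Its values in the knockout hearts and in control hearts 3 and 4 therefore lie on the part of the scale where quantile normalisation gives each rank 1 value in all libraries. Nppb ranked 346 to 440 in the control and 45, 96, 218 and 554 in knockout hearts 1 to 4.

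Nppa (ENSMUSG00000041616, chromosome 4, 148000722 to 148002079) was at 1246, 1323, 1786 and 1744 FPKM in control hearts 1 to 4. In knockout hearts 1 to 4 it was at 2195, 8759, 4184 and 2631 FPKM. Every knockout heart lay above every control heart, and knockout heart 2 lay far above the other 3 knockout hearts. The means were 1525 ± 280 and 4442 ± 3002 FPKM (SD, n = 4 each), a log2 change of 1.34 ± 0.39 (SE, 95% interval 0.45 to 2.23). This gave an adjusted p of 0.058 by limma over all genes tested, so Nppa did not pass, and an exact two-sided permutation p of 0.0286 before any adjustment. With 70 ways to divide the 8 libraries, 0.0286 is the smallest p this test can give. Nppa passed without knockout heart 1 (log2 change 1.61, adjusted p = 0.0288) and without knockout heart 2 (0.94, adjusted p = 0.0444), and in 6 of 21 alternatives in all, over which adjusted p ran from 0.00544 to 0.268.

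Nppb (ENSMUSG00000029019, chromosome 4, 147985788 to 147987205) was at 158, 158, 175 and 219 FPKM in control hearts 1 to 4. The knockout hearts 1 to 4 gave 1357, 711, 369 and 119 FPKM. Knockout hearts 1 to 3 were above all control hearts and knockout heart 4 was below all of them, so the groups overlapped. The means were 177 ± 28.9 and 639 ± 537 FPKM (SD, n = 4 each), a log2 change of 1.36 ± 0.67 (SE, 95% interval -0.20 to 2.93, limma adjusted p = 0.219). Without knockout heart 1 the log2 change was 0.84 (limma adjusted p = 0.339), and without knockout heart 4 it was 2.0 and passed the test (limma adjusted p = 0.0269). It also passed without both hearts numbered 4 (2.11, adjusted p = 0.0358) and with array weights, which give libraries that deviate more a lower weight (1.70, adjusted p = 0.0374).

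The order of the knockout hearts was different for the peptide genes. Nppa was highest in knockout heart 2 and lowest in knockout heart 1, whereas Nppb was highest in knockout heart 1 and lowest in knockout heart 4. In the control hearts the FPKM of Nppb came to 12.7, 11.9, 9.80 and 12.6% of that of Nppa. In knockout hearts 1 to 4 it came to 61.8, 8.12, 8.81 and 4.52%, so it was above the control range in 1 heart and below it in the other 3. The log2 difference between Nppb and Nppa had an SD of 0.17 in the control and 1.64 in the knockout hearts. Its mean differed between the groups by 0.02 (exact two-sided permutation p = 1.0), and by -0.77 without knockout heart 1 and -0.06 without control heart 3, so its direction rests on single libraries.

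Nppc (ENSMUSG00000026241, chromosome 1, 86666291 to 86670571), whose peptide is made by endothelial and growth plate cells, among others, was close to 0. It was at 0.152, 0.456, 0.117 and 0.0926 FPKM in control hearts 1 to 4 and at 0.462, 0.289, 0.299 and 0.0771 FPKM in knockout hearts 1 to 4. The groups overlapped (exact two-sided permutation p = 0.543, n = 4 each). At this level and an unknown depth a difference was not detectable.

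Npr1 (ENSMUSG00000027931, chromosome 3, 90450591 to 90465866), the receptor gene for ANP and BNP, was at 10.9, 10.8, 10.4 and 12.6 FPKM in control hearts 1 to 4. The corresponding knockout values were 6.47, 6.40, 6.66 and 5.16 FPKM. All knockout hearts were below all control hearts, with a narrow spread in both groups. Control heart 4, the library with high Scgb1a1 and Scgb3a2, was the highest control, and knockout heart 4 was the lowest knockout heart. Without both hearts numbered 4 the log2 change was -0.64 (limma adjusted p = 0.00386). The means were 11.2 ± 0.967 and 6.17 ± 0.684 FPKM (SD, n = 4 each), a log2 change of -0.77 ± 0.10 (SE, 95% interval -0.98 to -0.55, limma adjusted p = 0.00184). Npr1 passed in 21 of 21 alternatives, with a log2 change between -0.85 and -0.64 and an adjusted p between 0.000493 and 0.022. In a whole heart, fewer cells of a type and less RNA per cell cannot be told apart, here or in the results below.

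Npr2 (ENSMUSG00000028469, chromosome 4, 43631935 to 43651244), the receptor gene for C-type natriuretic peptide, was at 18.8, 18.0, 17.2 and 20.0 FPKM in control hearts 1 to 4. Among the knockout hearts 1 to 4 the values were 13.4, 15.1, 12.6 and 16.0 FPKM. The groups did not overlap, although knockout heart 4, the highest of its group, came close to control heart 3, the lowest of the controls. The means were 18.5 ± 1.19 and 14.3 ± 1.55 FPKM (SD, n = 4 each), a log2 change of -0.36 ± 0.09 (SE, 95% interval -0.56 to -0.15, limma adjusted p = 0.0353). This call was lost when any library other than knockout heart 4 was left out (adjusted p between 0.0538 and 0.0889) and in 12 of 21 alternatives in all.

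Npr3 (ENSMUSG00000022206, chromosome 15, 11839896 to 11907287), the clearance receptor gene, was at 8.04, 9.42, 12.1 and 10.6 FPKM in control hearts 1 to 4. Knockout hearts 1 to 4 had 3.72, 10.1, 8.91 and 6.69 FPKM. Knockout hearts 2 and 3 lay inside the control range and knockout hearts 1 and 4 below it. The means were 10.1 ± 1.75 and 7.34 ± 2.79 FPKM (SD, n = 4 each), with a log2 change of -0.46 ± 0.24 (SE, 95% interval -1.01 to 0.08, limma adjusted p = 0.234). It passed in 0 of 21 alternatives, and its unadjusted p was 0.0876. Without knockout heart 1 the log2 change was -0.22.

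Whether the changes of the receptor genes differed in size was tested on their difference within each heart. Npr1 came to 57.8, 60.2, 60.5 and 62.9% of the FPKM of Npr2 in the control hearts and to 48.4, 42.3, 52.7 and 32.2% in the knockout hearts. The log2 difference between Npr2 and Npr1 was 0.41 larger in the knockout hearts and higher in 4 of 4 of them, with an exact two-sided permutation p of 0.0286 that became 0.0571 after adjustment over 4 such differences. The log2 difference between Npr3 and Npr1 was 0.30 larger in the knockout hearts (exact two-sided permutation p = 0.371, adjusted over 4 differences 0.495), and it was 0.57 larger without knockout heart 1 and 0.16 larger without knockout heart 2. Npr3 came to 74.1 to 117% of Npr1 in the control hearts and to 57.5, 157, 134 and 130% in knockout hearts 1 to 4. Together the receptor genes summed to 37.7, 38.3, 39.8 and 43.2 FPKM in the control hearts and to 23.5, 31.6, 28.2 and 27.9 FPKM in the knockout hearts, with no overlap.

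**Figure D2:**
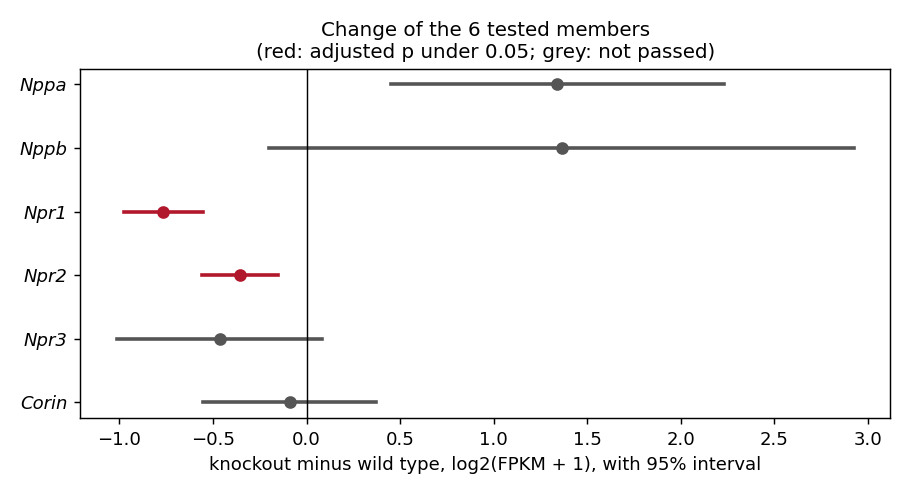
Log2 change (knockout minus wild type, log2(FPKM + 1), horizontal axis) of the 6 members tested, with its 95% interval; red marks the members that passed at adjusted p under 0.05. The intervals of Npr1 (-0.98 to -0.55) and Npr2 (-0.56 to -0.15) lie below 0, and that of Nppb (-0.20 to 2.93) is the widest.

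Corin (ENSMUSG00000005220, chromosome 5, 72300025 to 72504473) was at 37.7, 28.5, 37.6 and 25.4 FPKM in control hearts 1 to 4. Values of knockout hearts 1 to 4 were 20.5, 27.2, 35.9 and 39.8 FPKM. The 2 groups covered nearly the same range. The means were 32.3 ± 6.30 and 30.8 ± 8.69 FPKM (SD, n = 4 each), a log2 change of -0.09 ± 0.21 (SE, 95% interval -0.55 to 0.37, limma adjusted p = 0.807), and 0.08 without knockout heart 1. The interval allows a change of either sign.

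Mme (ENSMUSG00000027820, chromosome 3, 63241537 to 63386030) was at 1.55, 0.921, 1.29 and 0.987 FPKM in control hearts 1 to 4. For knockout hearts 1 to 4 the values were 0.660, 0.474, 0.542 and 0.332 FPKM. All knockout hearts were below all control hearts, with means of 1.19 ± 0.292 and 0.502 ± 0.137 FPKM (SD, n = 4 each), 2.36-fold apart. Its mean over the 8 libraries was under the filter of 1 FPKM, so it was compared on its own (log2 difference -0.54, exact two-sided permutation p = 0.0286, unadjusted). In the fit without the filter its adjusted p was 0.0314. Neprilysin is also made by neutrophils and early lymphocytes, and of 8 markers of these cells 2 could be tested, S100a8 and S100a9, of which 0 passed in limma and 2 had an unadjusted p under 0.05. The summed level of the 8 was 9.88 to 29.8 FPKM in control and 4.26 to 9.14 FPKM in knockout hearts, with Ly6g at 0 in all libraries, and the part of these cells in the Mme values was not tested.

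**Figure D3:**
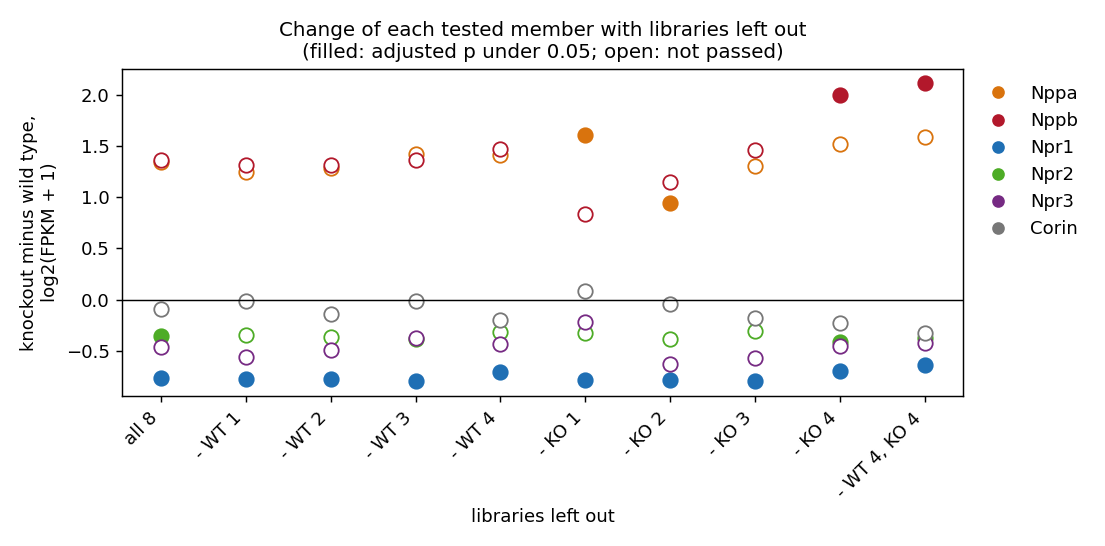
Log2 change (knockout minus wild type, log2(FPKM + 1), vertical axis) of the 6 members tested in all 8 libraries and with the libraries named on the horizontal axis left out; filled circles passed at adjusted p under 0.05 and open circles did not. Npr1 is filled throughout, Npr2 with all 8 libraries and where knockout heart 4 is absent, Nppa without knockout heart 1 or 2, and Nppb without knockout heart 4, alone or together with control heart 4.

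Nppa is an atrial gene at this age, so the atrial part of each heart sample was set beside it. Of 15 atrial markers, 15 could be tested and 0 passed in limma, with 3 at an unadjusted p under 0.05 (Sln, Stard10 and Pam). Pam, which also stands in the list of processing enzymes below, rose without knockout heart 1, and Stard10 fell without knockout heart 3. Their summed level was 1525 to 2603 FPKM in control and 1014 to 3842 FPKM in knockout hearts. Bmp10 is among the 15 markers, and its low values in the hearts numbered 1 and 4 of both groups lower the mean given next. The mean log2(FPKM + 1) of the markers was 4.85, 4.85, 5.10 and 4.79 in control hearts 1 to 4 and 3.89, 5.45, 5.38 and 4.26 in knockout hearts 1 to 4. Knockout hearts 2 and 3, which had the most Nppa, thus had the highest atrial marker levels of all 8, and knockout hearts 1 and 4, which had the least Nppa of the knockout group, the lowest. Nppb was highest in knockout heart 1, where the atrial markers were lowest. Myl7, the atrial myosin light chain gene, was at 1233, 599, 776 and 1257 FPKM in the control hearts and at 400, 1428, 1246 and 566 FPKM in knockout hearts 1 to 4 (limma adjusted p = 0.786). Control heart 1 had more Myl7 than control heart 2 at nearly the same marker mean, with Bmp10 at 0.0868 and 49.6 FPKM. Sln, which encodes the atrial calcium pump inhibitor sarcolipin, was at 233, 149, 206 and 249 FPKM and at 60.1, 159, 181 and 74.0 FPKM (limma adjusted p = 0.114).

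Relative to these markers, Nppa was higher in every knockout heart. The log2 difference between Nppa and the atrial marker mean was 5.44, 5.52, 5.70 and 5.98 in control hearts 1 to 4 and 7.21, 7.65, 6.65 and 7.11 in knockout hearts 1 to 4. It was 1.49 larger in the knockout hearts (exact two-sided permutation p = 0.0286, the smallest possible, adjusted over 4 differences 0.0571). With the atrial marker mean as a covariate in the fit over all genes, the log2 change of Nppa was 1.49 ± 0.21 (SE, limma adjusted p = 0.00544). The control hearts spanned only 4.79 to 5.10 in this mean and the knockout hearts 3.89 to 5.45. This adjustment therefore rests mainly on the knockout hearts. It also rests in part on Bmp10, which is among the markers, and a marker mean without Bmp10 was not tested. Of the libraries with Bmp10 at 1.12 FPKM or less, Nppa was at 1246 and 1744 FPKM in control and 2195 and 2631 FPKM in knockout hearts. Of those with Bmp10 at 49.6 FPKM or more it was at 1323 and 1786 FPKM in control and 8759 and 4184 FPKM in knockout hearts. Of 11 ventricular markers 0 passed in limma, with 3 at an unadjusted p under 0.05 (Mpped2, Slc26a6 and Gja1; Slc26a6 fell without knockout heart 4), and they summed to 18535 to 23613 FPKM in control and 14495 to 21988 FPKM in knockout hearts.

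**Figure D4:**
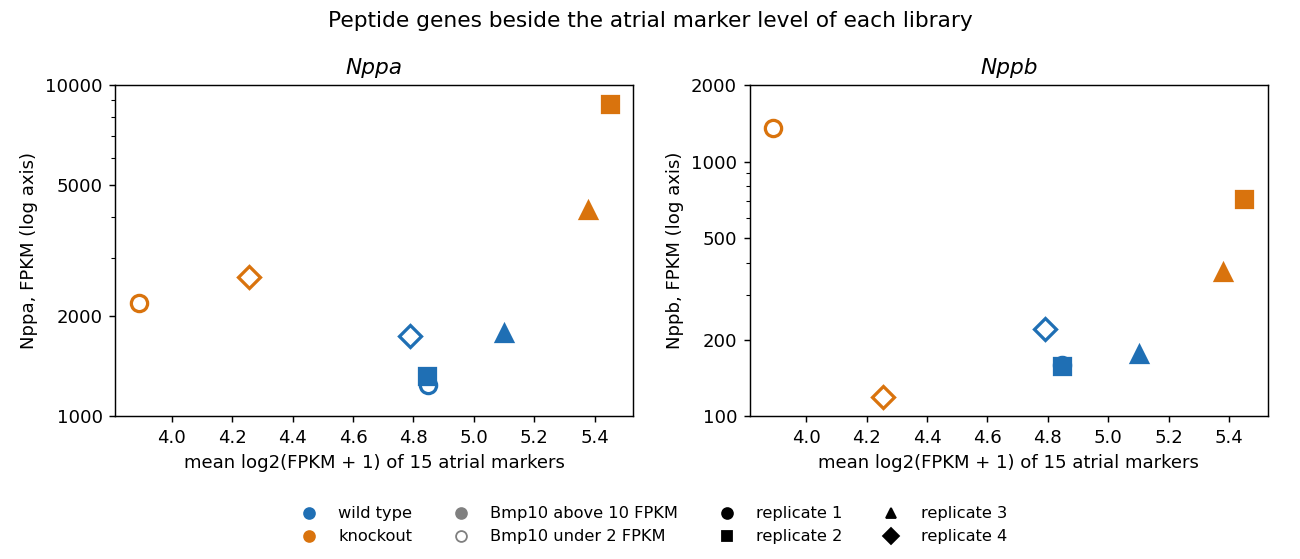
FPKM of Nppa and of Nppb (vertical log axes) against the mean log2(FPKM + 1) of 15 atrial markers (horizontal axis) in each heart library, with wild type controls in blue and knockout hearts in orange, open where Bmp10 was under 2 FPKM; control hearts 1 and 2 nearly coincide. The knockout hearts lie at 3.89 to 5.45 on the horizontal axis, on both sides of the control hearts at 4.79 to 5.10, and above them in Nppa throughout. Bmp10 is itself among the 15 markers.

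The receptors and Mme are also made outside cardiomyocytes, so markers of these cells were read from the same fit. In that fit 6.15% of all genes tested rose and 6.01% fell. Of 17 endothelial markers 3 rose (Eng, Flt1 and Vwf) and 5 fell (Tek, Tie1, Ushbp1, Sox18 and Robo4), with a median log2 change of -0.20 beside -0.01 for all genes tested. Their summed level was 768 to 877 FPKM in control and 806 to 833 FPKM in knockout hearts. Of 10 fibroblast markers 0 rose and 3 fell (Dcn, Lum and Dpt), with a median log2 change of -0.28 and a summed level of 1434 to 1648 FPKM in control and 1049 to 1243 FPKM in knockout hearts. Of 7 endocardial markers tested 1 fell, Cytl1, from 11.4 to 4.34 FPKM (limma adjusted p = 0.012), and the list summed to 239 to 327 and 228 to 475 FPKM. The falls of Dcn, Dpt and the 5 endothelial markers and the rises of Flt1 and Vwf held with any 1 library left out. Lum lost its call in 6 of 8 omissions and Eng in 7 of 8 (adjusted p up to 0.0886 and 0.116). Of 10 smooth muscle and pericyte markers 2 rose (Tagln and Des) and 1 fell (Smtn), with 1 to 2 rising and 0 to 2 falling when 1 library was left out (summed level 718 to 769 and 772 to 899 FPKM), and of 6 epicardial markers Wt1 and Krt19 rose (37.3 to 68.0 and 64.7 to 83.9 FPKM), Krt19 losing its call in 6 of 8 omissions (adjusted p up to 0.0735). None of these markers was at 0 in all libraries, and their part in the values of Npr1, Npr2, Npr3 and Mme was not tested.

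Among enzymes that activate or break down the peptides, 13 of 22 listed genes could be tested. Of the 13, 1 rose and 3 fell, beside 6.15% and 6.01% of all genes tested, with a median log2 change of -0.03. Pcsk6, the convertase that activates corin, was at 22.5 to 26.2 FPKM in the control and 8.41 to 16.1 FPKM in the knockout hearts. It fell by 0.87 ± 0.16 on the log2 scale (SE, limma adjusted p = 0.0109). Furin, a convertase of the BNP precursor, was at 28.1, 22.6, 25.0 and 19.7 FPKM in control and 21.6, 34.4, 37.9 and 44.2 FPKM in knockout hearts 1 to 4 (limma adjusted p = 0.140, and 0.0117 without knockout heart 1). Ace, the angiotensin-converting enzyme, rose from 12.4 ± 0.810 to 40.9 FPKM (SD, n = 4; log2 change 1.58, limma adjusted p = 0.00302). Fap, a fibroblast protease related to DPP4, fell from 4.17 to 1.45 FPKM (limma adjusted p = 0.0127). Anpep, an aminopeptidase of the cell surface, fell from 8.01 to 4.94 FPKM (limma adjusted p = 0.0382), a call lost without any 1 of the 4 control hearts or without knockout heart 2 (adjusted p up to 0.0918). Ostn, whose product osteocrin competes for NPR-C, was listed at 0.0265 FPKM in control heart 1 and at 0 in the other libraries. Without knockout heart 1, 4 genes of the list rose and 3 fell, and without the 4 control hearts or knockout heart 2, each in turn, 1 rose and 2 fell.

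Below the receptors, 17 of 20 listed genes of cyclic GMP signalling could be tested. Of the 17, 1 rose and 2 fell, with a median log2 change of 0.06. Among all genes tested 12.2% were called in either direction, and the count of the list was not tested against that share. Prkg1, the cyclic GMP-dependent kinase that carries the signal of NPR-A and NPR-B, was at 2.18, 0.981, 1.54 and 0.914 FPKM in control and 3.04, 3.39, 3.83 and 3.94 FPKM in knockout hearts 1 to 4. It rose by a log2 change of 0.95 ± 0.16 (SE, limma adjusted p = 0.00688), with no overlap between the groups. Mrvi1, a substrate of this kinase, fell from 3.72 to 2.66 FPKM (limma adjusted p = 0.0466), and Pde2a, a phosphodiesterase that cyclic GMP stimulates, from 22.9 to 19.1 FPKM (limma adjusted p = 0.0469). Each of these 2 calls was lost in 7 of 8 omissions of a single library, all but control heart 2 for Mrvi1 and all but knockout heart 1 for Pde2a (adjusted p up to 0.115 and 0.13), and 3 genes rose without control heart 1. Pde5a and Pde9a, phosphodiesterases that break down cyclic GMP, did not pass. Pde5a was at 1.85 FPKM in control and 2.20 FPKM in knockout hearts (limma adjusted p = 0.202), and Pde9a at 4.0 and 3.1 FPKM (limma adjusted p = 0.208).

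Of 26 transcription factors and cofactors known from the Nppa and Nppb promoters, 24 could be tested. Of the 24, 3 rose and 2 fell, beside 6.15% and 6.01% of all genes tested, with a median log2 change of 0.17. Without knockout heart 1, 5 rose and 1 fell, and without control heart 2, 2 rose and 1 fell. In the omissions of the other libraries 3 to 4 rose and 1 to 2 fell. Gata4, whose motif stands in both windows shown above, was at 36.5 to 41.5 FPKM in control and 49.5 to 57.8 FPKM in knockout hearts. It rose by a log2 change of 0.41 ± 0.08 (SE, limma adjusted p = 0.012). Tbx20, a T-box factor of heart muscle, rose from 28.6 to 40.9 FPKM (limma adjusted p = 0.0152), a call lost without control heart 2 (adjusted p = 0.0524). Hopx, a cofactor that holds back serum response factor, fell from 304 ± 17.1 to 158 FPKM (SD, n = 4; log2 change -0.94, limma adjusted p = 0.000715) and passed in 21 of 21 alternatives. The other gene that fell, Tbx3, a T-box repressor, went from 3.29 to 2.03 FPKM (limma adjusted p = 0.0408), a call lost in 7 of 8 omissions, all but knockout heart 3 (adjusted p up to 0.0976). Tead1, which binds the M-CAT motif, has 2 entries in the table. The entry ENSMUSG00000055320 rose by 1.45 ± 0.28 on the log2 scale (SE, limma adjusted p = 0.0124) and the entry ENSMUSG00000055593 lay at 17.1 to 21.5 FPKM in all libraries (limma adjusted p = 0.878). Its reads may be divided between these entries, so the value is uncertain.

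**Figure D5:**
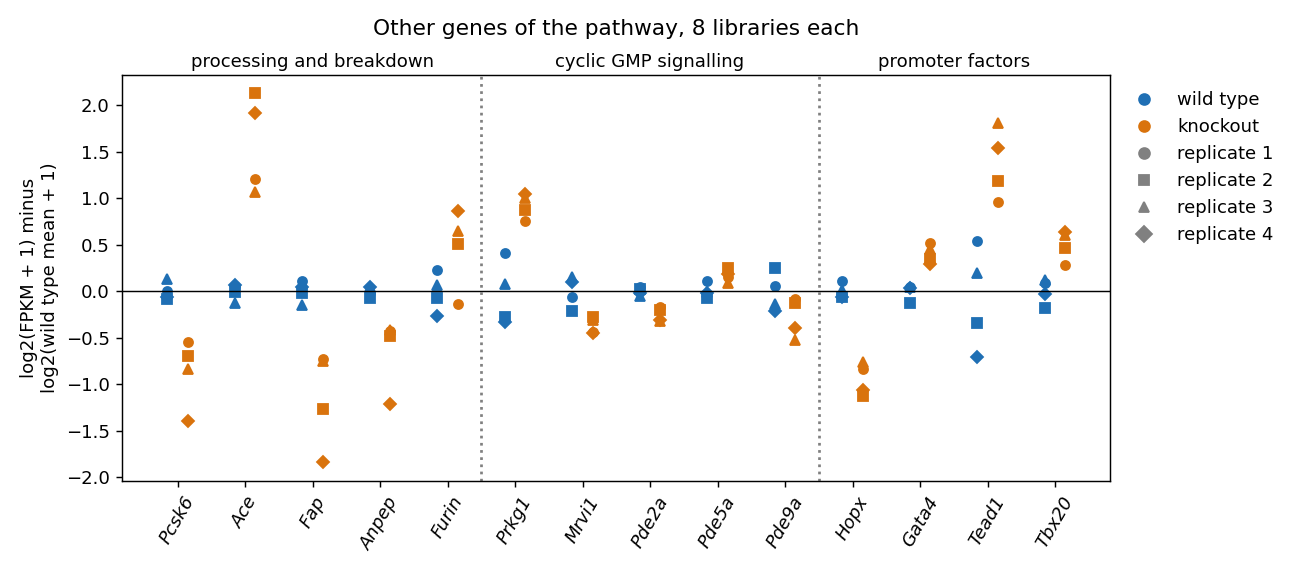
Difference of log2(FPKM + 1) from the control mean (vertical axis) for 14 genes of processing, cyclic GMP signalling and promoter control (horizontal axis) in each heart library, with wild type controls in blue and knockout hearts in orange, with 1 symbol per replicate number. All 4 knockout hearts lie above the control hearts in Ace, Prkg1, Gata4, Tead1 and Tbx20. They lie below them in Pcsk6, Fap, Anpep, Mrvi1, Pde2a and Hopx, whereas Furin, Pde5a and Pde9a overlap. For Tead1 only the entry ENSMUSG00000055320 is drawn, and the groups overlap in its other entry.

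Nppa and Nppb are usually read together with other genes of load and of the fetal programme of heart muscle. Of 28 such genes, Nppa and Nppb among them, 25 could be tested, while Acta1 was absent from the deposited table. Of the 25, 7 rose and 1 fell, beside 6.15% and 6.01% of all genes tested. The 7 were Ctgf, Uchl1, Timp1, Mt2, Mt1, Des and Enah. The list was chosen with earlier results of these data known, so its counts are descriptions. The median log2 change was 0.42, beside -0.01 for all genes tested. The number that rose was 4 without control heart 2, 3 or 4 and 9 without knockout heart 4. Ctgf, a matricellular protein gene induced by strain, rose from 43.4 ± 1.74 to 148 FPKM (SD, n = 4; log2 change 1.71, limma adjusted p = 0.000693). Uchl1 rose from 18.6 to 44.0 FPKM (limma adjusted p = 0.00497), Timp1, an inhibitor of matrix metalloproteases, from 8.77 to 18.5 FPKM (limma adjusted p = 0.00758) and the metallothionein Mt2 from 12.6 to 76.0 FPKM (limma adjusted p = 0.00846). The gene of this list that fell was Tnnt1, the slow skeletal troponin T gene, from 36.8 to 18.5 FPKM (limma adjusted p = 0.0248), a call lost without control heart 1 or 2 or knockout heart 2 (adjusted p up to 0.0687). Myh7, the fetal and slow myosin heavy chain gene, was at 95.7 FPKM in control hearts and at 79.2 FPKM in knockout hearts, which did not pass (limma adjusted p = 0.0689). Myl4, also among the atrial markers, did not pass either (log2 change 0.008, limma adjusted p = 0.993). Ctgf, Timp1 and Mt2 are also expressed outside heart muscle, and which cells they came from was not tested.

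The neighbours of Nppa and Nppb were read as the locus, the 8 protein-coding genes that start within 100 kb of the start of Nppa. Of the other 6, 0 passed in limma, with 3 at an unadjusted p under 0.05 (Mfn2, 2510039O18Rik and Agtrap). Clcn6, the chloride channel gene next to Nppa, was at 2.51 FPKM in control and 2.33 FPKM in knockout hearts (limma adjusted p = 0.607). Agtrap was at 8.22 and 9.73 FPKM (adjusted p = 0.126), Mfn2 at 144 and 177 FPKM (adjusted p = 0.151) and Plod1 at 43.7 and 50.0 FPKM (adjusted p = 0.18). The gene 2510039O18Rik was at 13.6 and 15.3 FPKM (adjusted p = 0.168). Their mean folds lay between 0.930 and 1.23, against 2.91 for Nppa and 3.60 for Nppb. In GENCODE M21 antisense genes overlap Nppa (Gm13054), Npr1 (Gm16048), Npr2 (Gm12473) and Corin (Gm20647). A long noncoding RNA gene on the opposite strand overlaps Npr3 (Gm5144). Corin is also overlapped by further noncoding genes, some on its own strand (such as AU023070). The sources used here do not give the strand setting, so reads of such partners cannot be told apart from those of the members.

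The genes most like the peptide genes and the called receptor genes over the 8 libraries were found by the root mean square difference between their deviations from the control mean on the log2(FPKM + 1) scale. For Nppa these were Cthrc1 (0.336), Thbs4 (0.392) and Lrp8 (0.394). Cthrc1, a secreted glycoprotein gene, was at 3.66 to 5.27 FPKM in control and at 8.27, 25.97, 8.86 and 10.99 FPKM in knockout hearts 1 to 4, highest in the same heart as Nppa. For Nppb they were Ankrd1 (0.375), Gap43 (0.619) and Plau (0.627). Ankrd1, which encodes a stretch-responsive repeat protein of the sarcomere, was at 287, 227, 287 and 376 FPKM in control and 1127, 996, 658 and 221 FPKM in knockout hearts 1 to 4, the same order of knockout hearts as in Nppb. It did not pass (limma adjusted p = 0.148), but did without knockout heart 4 (adjusted p = 0.00333), the heart that is also lowest in Nppb. For Npr1 they were Rarg (0.0599), Efr3b (0.0705) and Nsmce1 (0.0717), and for Npr2 Lrp3 (0.0644), Trim39 (0.0669) and Pithd1 (0.0671). These values are descriptions over 8 libraries and carry no test.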

How the data were processed

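RNA from whole hearts was sequenced as 8 Illumina TruSeq libraries (per the labels' protocols) and processed with TopHat2 and Cufflinks on mm10 (per the submitters' processing notes, without versions). The deposited values are not named in the table and were read as FPKM on a linear scale, quantile normalised by the authors, since the 39 highest ranks agree in all columns. There were 0 per-sample columns outside the 8 samples. Depth cannot be recovered from such values, so no counting error is given, and the 4 libraries per group limit the precision.

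Groups came from the labels. The 11390 genes averaging 1 FPKM or more were compared on log2(FPKM + 1), which understates changes of low genes, with limma 3.58.1 under R 4.3.3 (lmFit and eBayes with trend and robust) and Benjamini-Hochberg adjustment. Single values were compared by exact two-sided permutation tests in scipy 1.17.1 under Python 3.11.15, with figures by matplotlib 3.10.9, and the fit was tested on simulated data. Motifs were searched in RefSeq promoter windows (GRCm38.p6), in which 8 of 8 members matched by symbol, and ring codons were read from GENCODE M21, which held 21739 of the 22518 identifiers.

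The genes, lists and alternatives were chosen with earlier results of these data known. Named genes are the 8 members, Egln1, Egln3, Furin, Pcsk6, Prkg1, Pde5a, Pde9a and Ostn, the called genes of each list with the 4 smallest p, the protein-coding neighbours of Nppa, the 3 genes nearest to Nppa, Nppb and each called member, and Bmp10, Sln and Myl7. Tbx3, Tnnt1, Myh7, Myl4, Mt1, Enah, Pam, Stard10 and the other markers were picked with their values in view. For 1 gene under this rule the values are left out here, although it is counted. The alternatives changed the pseudocount, filter, scaling, variance model, weights, threshold, replicate block or covariates, or left out libraries.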

Additional observations from a re-analysis of the deposited data

Results flagged for a closer look

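Among the 8 members in both groups, 1 value stood far from the other 3 of its group. Nppc was at 0.456 FPKM in control heart 2, and the gap to the next control heart made up 0.837 of the range of the group, which is above the 95% critical value of Dixon's test for 4 samples. Chance gives such a gap in about 1 in 20 groups, and 16 groups were looked at. The value is under the filter of 1 FPKM.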

How the results depend on the processing

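Over 21 alternatives Npr1 kept its direction and its call, and Npr3 and Corin were called in 0. The number of genes changed was 1385, with 202 at a minimum change of 1.2-fold, 613 with the replicate block and 574 (without control heart 2) to 1819 (without knockout heart 1) with 1 library left out. The number of members changed was 2, with 4 under array weights (Nppa and Nppb higher, Npr1 and Npr2 lower), 1 at a minimum change of 1.2-fold, 1 with the replicate block and 1 to 3 with 1 library left out. Without the filter on low values the 2 members called were Npr1 and Mme. Besides the settings given above, Nppa passed with plain eBayes (adjusted p = 0.0496), array weights (0.0246) and the Bmp10 covariate (0.0497), and Npr2 did not pass without the filter (0.0524), at a minimum change of 1.2-fold (1.0), with the replicate block (0.0615) or with either covariate (0.0518 and 0.0515). At a minimum change of 1.2-fold the calls of Pcsk6 (0.092), Fap (0.0741), Prkg1 (0.0505), Gata4 (0.586), Tead1 (0.0549), Tbx20 (0.375) and Timp1 (0.0515) were lost, whereas Ace, Hopx, Ctgf, Uchl1 and Mt2 passed in all alternatives. The log2 change of Corin ran from -0.22 to 0.0849 (without knockout heart 1) with 1 library left out. The difference between the changes of Nppb and Nppa ran from -0.77 to 0.49 with 1 library left out (-0.06 without control heart 3) and was 0.52 without both hearts numbered 4. The cause of these changes was not tested. Over all genes tested, same-numbered libraries did not deviate together (correlations -0.226, 0.0093, 0.102 and -0.0966). Only replicate 3 correlated best with its own number. Bmp10, however, was low in the hearts numbered 1 and 4 of both groups and high in those numbered 2 and 3. Whether same-numbered samples belong together is not in the labels, and these correlations cannot settle it. With 3 libraries against 4 the permutation tests cannot go below 0.0571, so they say nothing about stability. The unknown depth limits what can be said of Nppc and Mme.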
